A study of Saccharomyces cerevisiae with 9 samples.

Results

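RNA levels of 40 yeast genes that act in protein entry into the endoplasmic reticulum (ER), in disulfide formation, in glycosylation and in ER-associated degradation (ERAD) are described here, out of 7122 genes in the deposited table. The genes were taken by symbol from a list of 41 names that leaves out the Kar2 Hsp70 system; 40 names matched the table, and DOA10 is a synonym of SSM4, so the names stand for 40 genes, all of which passed the filter on low counts. They fall into 6 groups by role: the translocon with 7 genes, oxidative folding with 8, glycan trimming with 3, oligosaccharyltransferase with 9, O-mannosylation with 3 and ERAD with 10. Polyadenylated RNA was sequenced from log-phase cultures of Saccharomyces cerevisiae in minimal medium with 2% glucose, in 3 libraries of each of 3 strains of the prototrophic CEN.PK laboratory background. WT carries no labelled deletion, ect1Δ pct1Δ is labelled as lacking the genes that make CDP-ethanolamine and CDP-choline in the Kennedy pathway, the route to phosphatidylethanolamine and phosphatidylcholine from ethanolamine and choline, and cpt1Δ ept1Δ as lacking the genes of its last step. The labels do not say whether replicates were separate cultures or whether a strain is 1 clone. A p-value thus sets a difference between strains only against the spread among these libraries, and that spread may be technical. In bulk RNA, fewer cells and less RNA per cell cannot be told apart.

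Proteins bound for secretion or for the cell's membranes cross or enter the ER membrane through the Sec61 channel, receive N-linked glycans from oligosaccharyltransferase and O-linked mannose from the Pmt proteins, and form disulfide bonds with the help of Pdi1 and Ero1. Chains that fail to fold are marked with ubiquitin by ligases of the ER membrane, pulled back into the cytosol and degraded by the proteasome. When unfolded proteins build up, the sensor Ire1 splices the HAC1 message, and the Hac1 transcription factor raises the genes of this machinery, with the chaperone gene KAR2 as its best known target. Changes in the lipid makeup of the ER membrane are also known to act on Ire1.

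Because Hac1 acts through short promoter elements, the DNA before 4 of the 8 oxidative folding genes is shown first, with that of KAR2 for comparison. These 4 were picked because their upstream DNA holds an exact match to an element marked below. The 300 bases before ERV2, MPD2, EPS1 and FPR2 hold no exact match to the 3 elements. The sequences come from the RefSeq reference of build R64 (strain S288C, not CEN.PK), on the gene's strand, 5′ to 3′, and run from 300 to 81 bases before the annotated gene start, a stretch of 220 bases. They lie at chrXIII:13255-13474 (minus strand) for ERO1, chrIV:1478308-1478527 (plus) for EUG1, chrXV:853158-853377 (minus) for MPD1, chrIII:50302-50521 (minus) for PDI1 and chrX:381027-381246 (plus) for KAR2. Capitals mark matches, on either strand, to 3 elements tied to the unfolded protein response. The first is CAGCGTG. The second is TACGTG. The last is ACGTGTC, and a stretch can match both of the latter.
ERO1: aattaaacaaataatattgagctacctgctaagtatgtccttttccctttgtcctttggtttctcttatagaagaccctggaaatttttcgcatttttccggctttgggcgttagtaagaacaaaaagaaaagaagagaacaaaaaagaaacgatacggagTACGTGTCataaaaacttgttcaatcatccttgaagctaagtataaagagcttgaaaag
EUG1: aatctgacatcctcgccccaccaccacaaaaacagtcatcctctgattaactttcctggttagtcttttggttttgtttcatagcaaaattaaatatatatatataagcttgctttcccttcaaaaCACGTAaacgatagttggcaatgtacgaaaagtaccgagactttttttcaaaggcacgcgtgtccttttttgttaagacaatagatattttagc
MPD1: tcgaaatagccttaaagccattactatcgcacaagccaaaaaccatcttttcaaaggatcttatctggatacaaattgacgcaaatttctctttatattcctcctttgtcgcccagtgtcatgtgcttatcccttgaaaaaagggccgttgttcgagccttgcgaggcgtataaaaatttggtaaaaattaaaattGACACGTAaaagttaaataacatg
PDI1: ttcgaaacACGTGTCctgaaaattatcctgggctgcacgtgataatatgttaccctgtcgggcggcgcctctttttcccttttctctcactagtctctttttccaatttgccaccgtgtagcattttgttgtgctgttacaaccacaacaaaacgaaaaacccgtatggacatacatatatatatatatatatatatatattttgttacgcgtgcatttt
KAR2: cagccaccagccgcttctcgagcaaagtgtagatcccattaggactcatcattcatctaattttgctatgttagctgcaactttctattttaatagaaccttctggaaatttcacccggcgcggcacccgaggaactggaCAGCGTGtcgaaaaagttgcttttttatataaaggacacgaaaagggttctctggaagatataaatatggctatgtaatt

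In these windows the classical element of the KAR2 promoter, CAGCGTG, was found 160 to 154 bases before KAR2. The 300 bases before each of the 40 genes held 0 exact copies of it. Over 7066 upstream windows of this length in the annotation, 1.23% held it. The element TACGTG stood before 7 of the 40 genes (17.5%, against 7.78% of all windows), namely ERO1, EUG1, HRD1, MPD1, SEC72, SSS1 and YOS9. ACGTGTC stood before 6 (15%, against 1.19%), namely ERO1, MPD1, PDI1, PMT1, PMT2 and SEC62. ERO1 and MPD1 held both in 1 overlapping match, 139 to 132 bases before ERO1 and, on the opposite strand, 104 to 97 bases before MPD1. In total 5 motifs were searched on both strands; the other 2, CCAGC and the E-box CACGTG, stood before 22.5% and 5% of the 40 genes and before 21.9% and 3.34% of all windows. Only exact matches were sought, so variants of an element were not counted. A match is a description of the letters in a window and not a mapped binding site.

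The deleted genes checked the labels: ECT1 and PCT1 stood at 0 to 0.74 FPKM in ect1Δ pct1Δ and 101 to 116 in the other strains, and CPT1 and EPT1 at 0 to 0.51 FPKM in cpt1Δ ept1Δ and 118 to 201 in the others. FPKM is the count scaled to the exonic length of the gene and to the total count of the library. PAH1 and DGK1, which the design text gives as knocked out, were present in all 9 libraries, at 17.4 to 22.6 and 119 to 129 FPKM. Total counts per library ran from 5669951 to 11793688. On the leading principal component, which held 23.0% of the variance, WT replicate 3 (13.0) and ect1Δ pct1Δ replicate 2 (7.33) lay at the high end, ect1Δ pct1Δ replicate 1 at the low end (-9.66) and the other 6 between -4.80 and 3.80. The pair at the high end also differed from their groups by gene length: across 6083 genes the deviation from the group mean had a Spearman's rho with exonic length of -0.46 in WT replicate 3 and -0.41 in ect1Δ pct1Δ replicate 2, against -0.12 to 0.31 in the other 7 libraries. Across the 40 genes it was -0.69 and -0.70, against -0.30 to 0.54 in the other 7. Deviations from a group mean balance within the group, so values of libraries of 1 strain depend on each other. Relative to their groups, short genes were thus high and long genes low in that pair, which was also left out together, a choice made with the data in view; ect1Δ pct1Δ replicate 1 was left out singly, like every other library. Markers of stationary-phase yeast, 10 genes fixed as a list, had a summed level of 201 to 224 FPKM in WT, against 281 to 332 in ect1Δ pct1Δ, and 248 to 274 for cpt1Δ ept1Δ, with no marker at 0 in all libraries; of the 7 markers that passed the count filter, HSP30 was called by edgeR in ect1Δ pct1Δ against WT. Markers of sporulating cells, 8 genes, summed to 50.5 to 53.0, 55.7 to 64.3 and 50.8 to 55.3 FPKM. The part of either in the values below was not tested.

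The machinery was well expressed in WT. Its genes had a median of 118 FPKM, above 77.7% of the 6083 genes tested, and 32 of the 40 lay above the median of those genes (41.6 FPKM). The range was 30.4-fold, from USA1, the scaffold of the Hrd1 ligase, at 22.4 ± 2.57 FPKM (mean ± SD, n = 3 here and below) to SSS1, the small tail-anchored subunit of the Sec61 channel, at 681 ± 58.0. Translocon, oligosaccharyltransferase and O-mannosylation genes had medians of 199, 181 and 155 FPKM, while oxidative folding, ERAD and glycan trimming genes had medians of 67.7, 48.5 and 26.0. Counts per gene and library ran from 163 to 10613. The median coefficient of variation between libraries was 6.34% for WT, 4.78% for ect1Δ pct1Δ and 4.04% for cpt1Δ ept1Δ over these genes, against 7.63%, 7.07% and 5.67% for all genes tested.

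**Figure D1:**
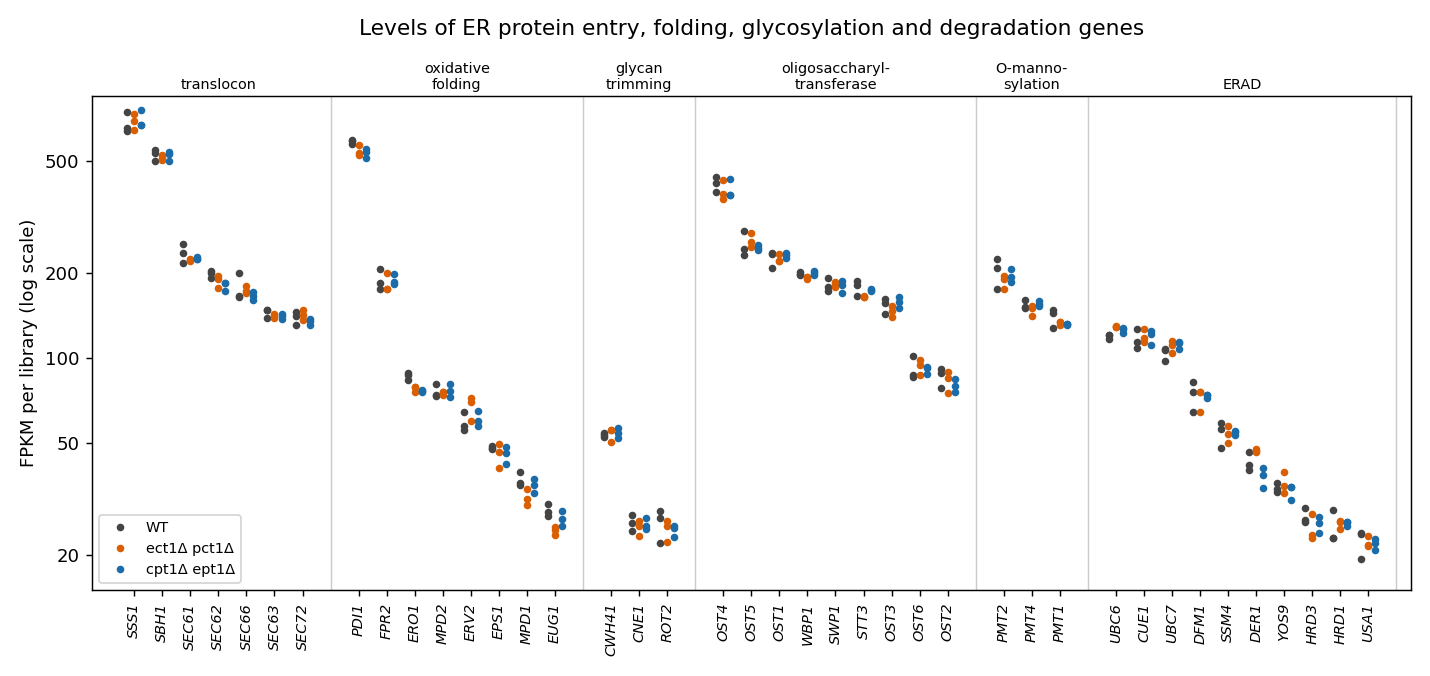
FPKM of each of the 40 genes in each of the 9 libraries, on a log axis, with genes ordered within their group by the WT mean. Points are libraries, coloured by strain; the range from 22.4 FPKM for USA1 to 681 for SSS1 is far wider than the distance between strains for any gene.

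The comparison of each deletion strain with WT asks whether this machinery is set differently when the Kennedy pathway is cut. No gene of the 40 passed the test in any comparison. By the quasi-likelihood test of edgeR, with p-values adjusted over all 6083 genes after Benjamini and Hochberg, 0 of the 40 were called at an adjusted p of 0.05 in ect1Δ pct1Δ against WT (0.46% of all genes tested), 0 in cpt1Δ ept1Δ against WT (0.132%), 0 in cpt1Δ ept1Δ against ect1Δ pct1Δ (0.197%) and 0 with both deletion strains against WT (0.427%). DESeq2 and limma on log2 FPKM also called 0 in each. At an unadjusted p below 0.05 the counts were 4, 3, 1 and 3 genes, or 10%, 7.5%, 2.5% and 7.5% of the 40, against 6.61%, 5.28%, 4.72% and 6.59% of all genes tested; by DESeq2 they were 4, 2, 1 and 2 genes. All of the edgeR values were lower ones, in the deletion strain or, between the strains, in cpt1Δ ept1Δ: ERO1, EUG1, MPD1 and STT3 in the first comparison, ERO1, PDI1 and SEC62 in the second, DER1 in the third and ERO1, EUG1 and PDI1 in the last. Of all genes tested, 2.47%, 2.7%, 2.99% and 2.88% had such a p on the lower side and 4.14%, 2.58%, 1.73% and 3.72% on the higher side, where the 40 had 0. The smallest edgeR Benjamini-Hochberg adjusted p of any of the 40 was 0.512 (EUG1), 0.61 (ERO1), 0.663 (DER1) and 0.364 (ERO1) in the same order.

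On TMM-scaled CPM, the libraries of the compared groups did not overlap, with the first group lower, for 5 of the 40 genes in ect1Δ pct1Δ against WT (4.67% of all genes tested), 3 in cpt1Δ ept1Δ against WT (5.19%), 1 in cpt1Δ ept1Δ against ect1Δ pct1Δ (5.59%) and 1 with both strains against WT (1.27%). With the first group higher, this held for 1, 2, 4 and 1 of the 40, against 5.92%, 5.24%, 4.75% and 1.82% of all genes tested.

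The intervals give the size of difference that these libraries leave room for. The 95% interval of the fold change, taken gene by gene from the edgeR fit, lay within 1.5-fold either way for all 40 genes in all 4 comparisons; of all genes tested this held for 86.5%, 87.6%, 87.9% and 89.6% in the same order. Within 1.25-fold lay the intervals of 36 of the 40 in ect1Δ pct1Δ against WT (64.6% of all genes tested), 39 in cpt1Δ ept1Δ against WT (67.2%), 36 between the strains (68.2%) and 40 for both strains against WT (73.1%). The 40 also had a smaller median SE, 0.0744 against 0.0872 for all genes tested in ect1Δ pct1Δ against WT. Genes of like expression level were not compared, so these shares do not show that the 40 were more stable than such genes. The farthest bounds were 1.34-fold against WT in ect1Δ pct1Δ (EUG1), 1.31-fold against WT in cpt1Δ ept1Δ (DER1), 1.43-fold between the deletion strains (DER1) and 1.25-fold for both strains against WT (EUG1). The median log2 fold change of the 40 was -0.04 in ect1Δ pct1Δ and -0.03 in cpt1Δ ept1Δ, beside medians of 0.00 over all genes tested in both. Values below 0 were found for 27 and 26 of the 40, against 48.8% and 50.8% of all genes tested, and these comparisons share the WT libraries. The counts were 16 between the strains (51.6%) and 29 for both strains against WT (50.4%).

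**Figure D2:**
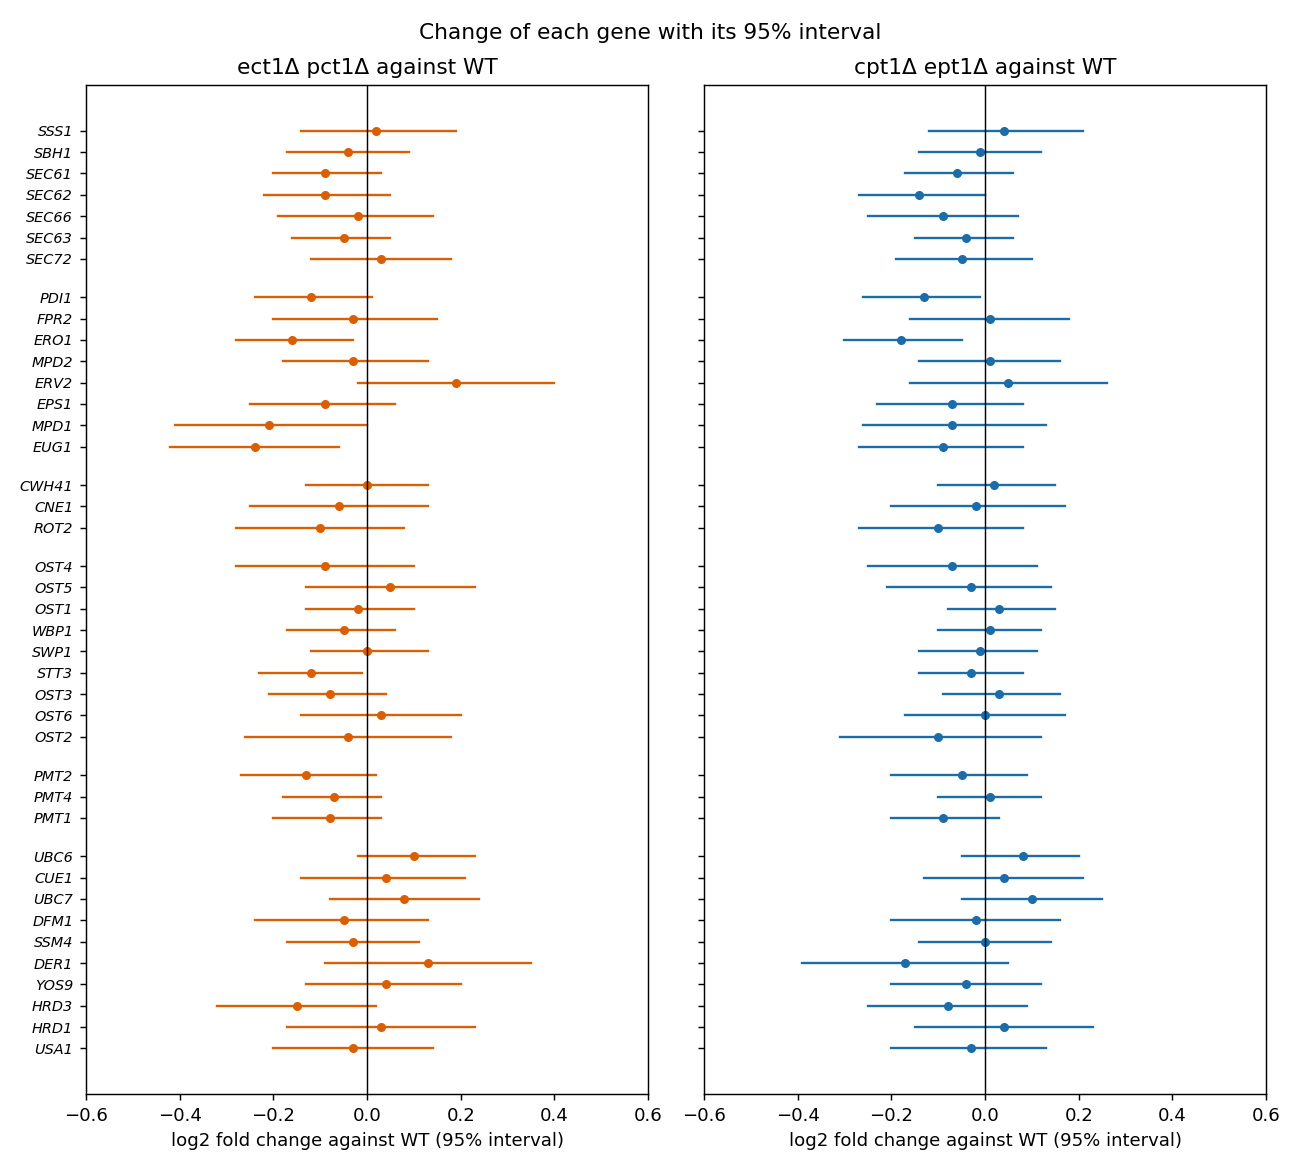
Log2 fold change of each gene against WT with its 95% interval from edgeR, for ect1Δ pct1Δ on the left and cpt1Δ ept1Δ on the right, grouped by role from the translocon at the top to ERAD at the bottom. All points lie between -0.24 and 0.19, and no interval reaches a 1.5-fold difference.

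Oxidative folding genes had a median log2 fold change of -0.10 in ect1Δ pct1Δ and -0.07 in cpt1Δ ept1Δ; 7 and 5 of the 8 were below 0, and 0 were called in either. These were the lowest medians of the 6 groups with all 9 libraries, but without WT replicate 3 and ect1Δ pct1Δ replicate 2 they were -0.09 and -0.05, against -0.13 and -0.14 for O-mannosylation. ERO1 (YML130C, chromosome XIII, 11483 to 13174), the oxidase that passes disulfide bonds to Pdi1, stood at 83.7, 87.1 and 88.8 FPKM in WT, at 75.6, 78.9 and 78.8 in ect1Δ pct1Δ and at 75.8, 76.2 and 77.2 in cpt1Δ ept1Δ. All 6 deletion libraries lay below all 3 WT libraries. On TMM-scaled CPM it was the 1 gene of the 40 with that order, which 1.27% of all genes tested had. The log2 fold change of ERO1 was -0.16 ± 0.06 (SE) in ect1Δ pct1Δ and -0.18 ± 0.06 in cpt1Δ ept1Δ, with 95% intervals of 0.822 to 0.976 and 0.813 to 0.963 as a fold, and unadjusted p-values of 0.0151 and 0.00701 by edgeR. Over both strains it was -0.17 ± 0.05 (edgeR, Benjamini-Hochberg adjusted p = 0.364), and -0.15 without WT replicate 3 and ect1Δ pct1Δ replicate 2 (adjusted p = 0.281).

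EUG1 (YDR518W, chromosome IV, 1478608 to 1480161), a paralog of PDI1, stood at 27.4, 28.5 and 30.4 FPKM in WT, at 23.6, 24.6 and 25.1 in ect1Δ pct1Δ and at 28.7, 26.9 and 25.3 in cpt1Δ ept1Δ. The ect1Δ pct1Δ libraries lay below those of both other strains, which overlapped each other. Its log2 fold change was -0.24 ± 0.09 in ect1Δ pct1Δ (edgeR, unadjusted p = 0.0128, Benjamini-Hochberg adjusted p = 0.512) and -0.09 ± 0.08 in cpt1Δ ept1Δ. The difference between the strains was 0.15 ± 0.08, with a 95% interval of -0.03 to 0.32. PDI1 (YCL043C, chromosome III, 48653 to 50221), the main protein disulfide isomerase and the highest gene of the group, stood at 575, 590 and 597 FPKM in WT, at 526, 573 and 534 in ect1Δ pct1Δ and at 553, 513 and 540 in cpt1Δ ept1Δ. All 6 deletion libraries were below WT in FPKM, ect1Δ pct1Δ replicate 2 by very little, and with TMM scaling that library overlapped WT. The log2 fold changes of PDI1 were -0.12 ± 0.06 and -0.13 ± 0.06. PDI1 shares 89 bases with YCL041C on the same strand, and how reads there were assigned is not stated in the labels.

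MPD1 (YOR288C), another member of the disulfide isomerase family, is named after its values were seen. It stood at 36.1, 39.5 and 35.4 FPKM in WT, at 31.5, 34.2 and 30.0 in ect1Δ pct1Δ and at 37.3, 33.2 and 35.4 in cpt1Δ ept1Δ, so that the ect1Δ pct1Δ libraries lay below WT and the cpt1Δ ept1Δ libraries overlapped it. Its log2 fold change was -0.21 ± 0.10 in ect1Δ pct1Δ and -0.07 ± 0.09 in cpt1Δ ept1Δ. ERV2, an ER sulfhydryl oxidase that can stand in for Ero1, had the opposite sign, 0.19 ± 0.10 and 0.05 ± 0.10, and overlaps 2 genes on the opposite strand. MPD2 and EPS1, further disulfide isomerases, and FPR2, a prolyl isomerase whose gene starts 263 bases after the end of EUG1, had values of -0.09 to 0.01 in both comparisons. The 11 genes with TACGTG or ACGTGTC in the 300 bases before them, the motifs shown in capitals above, had a median log2 fold change of -0.09 in ect1Δ pct1Δ and -0.07 in cpt1Δ ept1Δ, and the 29 without them -0.03 and -0.01. Values below 0 were found for 7 of the 11 and 20 of the 29 in ect1Δ pct1Δ, 9 and 17 in cpt1Δ ept1Δ, and 8 and 21 for both strains against WT; 0 of either set was called. The 11 include ERO1, EUG1, MPD1 and PDI1, whose lower values are given above. Other genes of the table with these motifs were not compared, and a part of the motifs in the levels was not tested.

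KAR2, which is not among the 40 and encodes the ER Hsp70, did pass the test. It stood at 310, 322 and 317 FPKM in WT, at 260, 272 and 263 in ect1Δ pct1Δ and at 252, 240 and 253 in cpt1Δ ept1Δ. Its log2 value fell by 0.26 ± 0.05 in ect1Δ pct1Δ and by 0.35 ± 0.05 with CPT1 and EPT1 deleted (edgeR, Benjamini-Hochberg adjusted p of 0.0322 and 0.00499). The first call was lost without WT replicate 1 or 2, ect1Δ pct1Δ replicate 1 or 3, or cpt1Δ ept1Δ replicate 2 (edgeR, highest Benjamini-Hochberg adjusted p 0.22). The second was lost without cpt1Δ ept1Δ replicate 2 (edgeR, Benjamini-Hochberg adjusted p = 0.0815). With limma on log2 FPKM both calls were lost (lowest Benjamini-Hochberg adjusted p 0.161 and 0.0886), and the first also with the compared groups fitted alone (edgeR, 0.0719). Over all alternatives the log2 fold change of KAR2 lay between -0.30 and -0.24 in ect1Δ pct1Δ and between -0.37 and -0.32 in cpt1Δ ept1Δ. Levels of KAR2 and PDI1, both encoding abundant ER proteins, were also set against each other within each library. The ratio of KAR2 to PDI1, both in FPKM, was 0.538 ± 0.00684 for WT, 0.487 ± 0.0116 for ect1Δ pct1Δ and 0.464 ± 0.00743 for cpt1Δ ept1Δ, and all 6 deletion libraries lay below WT. For both strains against WT the log2 ratio differed by -0.18, with a two-sided exact permutation p of 0.0119, the smallest that 3 against 6 libraries can give, and 0.0774 after Benjamini-Hochberg adjustment over the 13 ratios computed. The ratio holds the KAR2 values already called lower, so it is not separate evidence. From that smallest p, an adjusted value below 0.05 would need several of the 13 ratios to reach it.

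**Figure D3:**
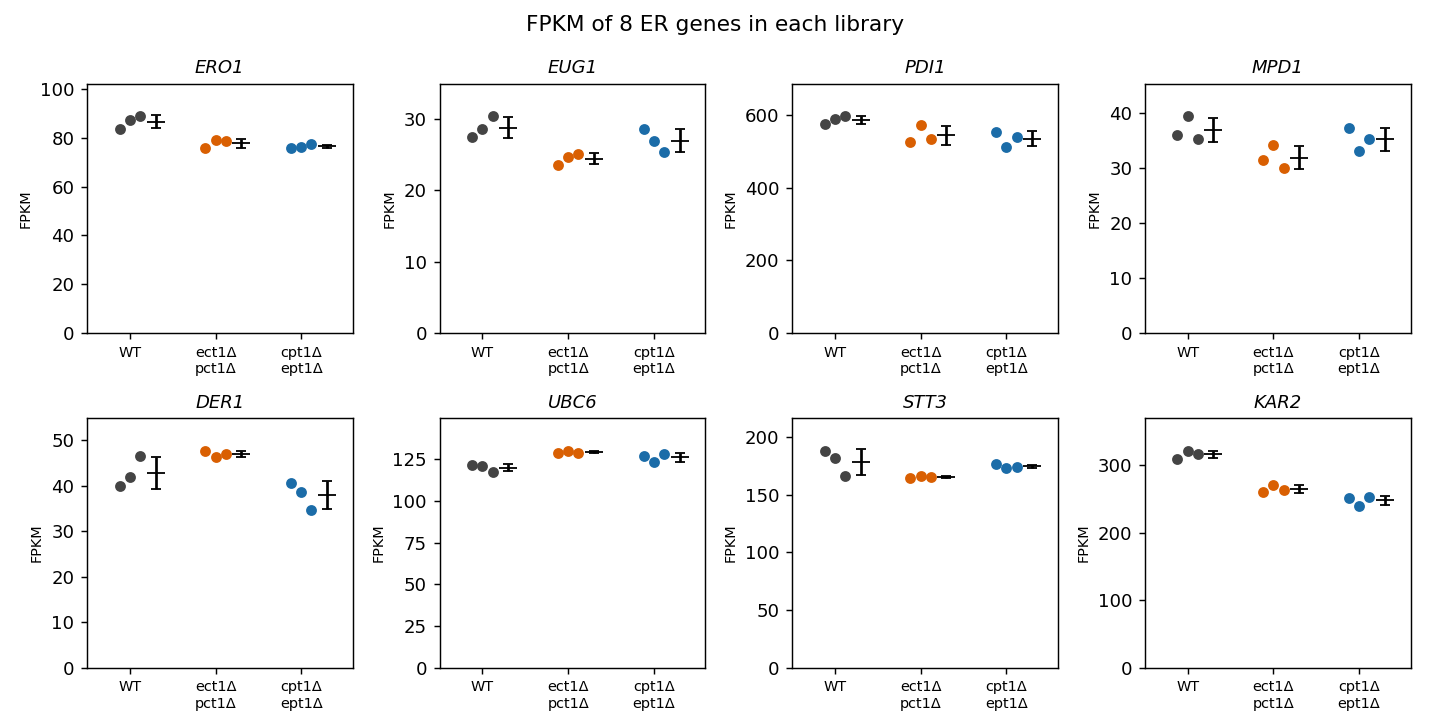
FPKM in each library for 7 of the 40 genes and for KAR2, with the mean and SD of each strain drawn as a bar beside its 3 points and all axes starting at 0. The genes were picked with their values in view. In FPKM, ERO1, PDI1 and KAR2 lie below WT in all 6 deletion libraries, and UBC6 lies above WT in all 6. With TMM scaling PDI1 overlaps WT. Of the 40 genes only ERO1 (lower) and UBC6 (higher) then keep this order, which 1.27% and 1.82% of all genes tested have.

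Translocon genes had medians of -0.04 in ect1Δ pct1Δ and -0.05 in cpt1Δ ept1Δ, with 0 of 7 called. SSS1 (YDR086C, chromosome IV, 616928 to 617170) had the highest level of the 40 genes, at 681 ± 58.0 FPKM for WT, 693 ± 45.5 for ect1Δ pct1Δ and 702 ± 53.1 for cpt1Δ ept1Δ, and the strains overlapped. SEC61 (YLR378C, chromosome XII, 875736 to 877178), which encodes the channel itself, stood at 236, 254 and 218 FPKM in WT, at 225, 223 and 222 in ect1Δ pct1Δ and at 230, 224 and 226 in cpt1Δ ept1Δ. The deletion libraries lay inside the range of WT, whose own spread was the widest. Per length, SSS1 and SBH1, the small subunits of the channel, exceeded SEC61 by ratios of 2.91 ± 0.471 and 2.25 ± 0.269 for WT, 3.11 ± 0.213 and 2.31 ± 0.0445 for ect1Δ pct1Δ, then 3.10 ± 0.196 and 2.32 ± 0.0636 for cpt1Δ ept1Δ. For both strains together against WT, exact two-sided permutation tests of these ratios gave p-values of 0.357 and 0.536. SSS1 and SBH1 are 243 and 249 bases long, against 1443 for SEC61. Both ratios were highest in WT replicate 3 (3.43 and 2.51), where short genes were high relative to the group. The part of gene length in these ratios was not tested.

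SEC62 (YPL094C, chromosome XVI, 369839 to 370663), part of the complex for proteins that enter after translation, stood at 192, 201 and 204 FPKM in WT, at 177, 195 and 192 in ect1Δ pct1Δ and at 185, 173 and 185 in cpt1Δ ept1Δ. The cpt1Δ ept1Δ libraries lay below WT and the ect1Δ pct1Δ libraries overlapped it. Its log2 fold change was -0.14 ± 0.06 in cpt1Δ ept1Δ (edgeR, unadjusted p = 0.0447, Benjamini-Hochberg adjusted p = 0.938) and -0.09 ± 0.06 in ect1Δ pct1Δ. The other genes of that complex, SEC63, SEC66 and SEC72, stood at 140 to 177 FPKM in WT and had log2 fold changes of -0.09 to 0.03.

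Oligosaccharyltransferase genes had medians of -0.04 and -0.01, with 0 of 9 called. STT3 (YGL022W, chromosome VII, 452404 to 454560), the catalytic subunit, stood at 188, 181 and 166 FPKM in WT, at 165, 166 and 165 in ect1Δ pct1Δ and at 176, 173 and 174 in cpt1Δ ept1Δ. In FPKM, WT replicate 3 stood at the level of ect1Δ pct1Δ, and the other WT libraries above all 6 deletion libraries. On TMM-scaled CPM the ect1Δ pct1Δ libraries lay below those of both other strains, which overlapped each other. The log2 fold change of STT3 was -0.12 ± 0.05 in ect1Δ pct1Δ (edgeR, unadjusted p = 0.0399, Benjamini-Hochberg adjusted p = 0.705) and -0.03 ± 0.05 in cpt1Δ ept1Δ. Its ratio to OST1 was 0.787 ± 0.0156 for WT, 0.734 ± 0.0269 for ect1Δ pct1Δ and 0.753 ± 0.00759 for cpt1Δ ept1Δ. The exact two-sided permutation p for both strains against WT was 0.0119, again the smallest possible, and 0.0774 adjusted over the 13 ratios. This ratio holds the STT3 values given above, so it is not separate evidence.

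OST3 (YOR085W, chromosome XV, 482033 to 483085) and OST6 encode alternative subunits that define 2 forms of the enzyme. OST3 stood at 162, 157 and 143 FPKM in WT, at 153, 140 and 147 in ect1Δ pct1Δ and at 151, 165 and 158 in cpt1Δ ept1Δ, with log2 fold changes of -0.08 ± 0.06 and 0.03 ± 0.06. The OST3 libraries of both deletion strains overlapped WT. The ratio of OST3 to OST6 was 1.70 ± 0.259 for WT, 1.58 ± 0.174 for ect1Δ pct1Δ and 1.74 ± 0.0269 for cpt1Δ ept1Δ (exact two-sided permutation p = 0.774 for both strains against WT). The subunits differed up to 4.84-fold in WT, from OST2 at 86.0 ± 6.65 FPKM to OST4 at 416 ± 26.2. OST4 (YDL232W, chromosome IV, 38487 to 38597) is only 111 bases long, and few read positions set its FPKM; its libraries overlapped between strains. OST5 is the 1 gene of the 40 whose annotated span exceeds its exonic length, by an intron of 149 bases.

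O-mannosyltransferase genes had a median of -0.08 in ect1Δ pct1Δ and -0.05 in cpt1Δ ept1Δ, with 0 of 3 called. PMT2 (YAL023C, chromosome I, 106272 to 108551), the highest of the group, stood at 225, 208 and 177 FPKM in WT, at 196, 177 and 190 in ect1Δ pct1Δ and at 195, 207 and 187 in cpt1Δ ept1Δ. WT spanned nearly all of both deletion strains. PMT1 (YDL095W, chromosome IV, 287059 to 289512), whose product pairs with Pmt2, stood at 144, 148 and 128 FPKM in WT, at 134, 131 and 135 in ect1Δ pct1Δ and at 131, 132 and 132 in cpt1Δ ept1Δ. In both genes WT replicate 3 was the lowest WT library. Log2 fold changes were -0.13 ± 0.07 and -0.05 ± 0.07 for PMT2 and -0.08 ± 0.06 and -0.09 ± 0.05 for PMT1, in the order of the strains above. Without WT replicate 3 and ect1Δ pct1Δ replicate 2 the group's medians were -0.13 and -0.14, and 0 of the 3 were called. PMT1 overlaps OPI6 on the opposite strand by 266 bases.

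Glycan trimming genes were the lowest of the 6 groups and had medians of -0.06 and -0.02, with 0 of 3 called. CWH41 (YGL027C) and ROT2 (YBR229C) encode glucosidases that trim the transferred glycan, and CNE1 (YAL058W) the yeast relative of calnexin. CWH41 stood at 54.2, 52.3 and 53.3 FPKM in WT, at 55.5, 50.3 and 55.8 in ect1Δ pct1Δ and at 56.4, 52.0 and 54.0 in cpt1Δ ept1Δ, and the strains overlapped. ROT2 stood at 28.7, 27.0 and 22.1, then 26.3, 22.2 and 25.4, then 25.3, 25.0 and 23.1 FPKM, and CNE1 at 26.0 ± 1.66, 25.0 ± 1.51 and 25.7 ± 1.23. Their log2 fold changes were -0.10 ± 0.09 and -0.10 ± 0.08 for ROT2, and -0.06 ± 0.09 and -0.02 ± 0.09 for CNE1. Single WT libraries set the size for ROT2: without WT replicate 1 its values were -0.02 and -0.01, and without WT replicate 3 they were -0.19 and -0.18. All 3 genes overlapped between strains.

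ERAD genes had medians of 0.03 in ect1Δ pct1Δ and -0.01 in cpt1Δ ept1Δ, with 0 of 10 called and 4 and 5 below 0. UBC6 (YER100W, chromosome V, 359562 to 360314), a ubiquitin-conjugating enzyme anchored in the ER membrane and the highest gene of the group, stood at 121, 121 and 117 FPKM in WT, at 129, 130 and 129 in ect1Δ pct1Δ and at 127, 123 and 128 in cpt1Δ ept1Δ. All 6 deletion libraries lay above WT, the 1 case of this order among the 40 genes on TMM-scaled CPM. Of all genes tested 1.82% had this order. Its log2 fold change was 0.10 ± 0.06 in ect1Δ pct1Δ and 0.08 ± 0.06 in cpt1Δ ept1Δ (edgeR, Benjamini-Hochberg adjusted p of 0.869 and 1.00). UBC7, the partner enzyme that CUE1 holds at the membrane, had values of 0.08 ± 0.08 and 0.10 ± 0.07, and CUE1 0.04 in both.

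DER1 (YBR201W, chromosome II, 623576 to 624211), a membrane protein of the Hrd1 ligase complex, is named after its values were seen as the gene of the 40 with the largest difference between the deletion strains. It stood at 39.9, 41.9 and 46.6 FPKM in WT, at 47.6, 46.4 and 46.9 in ect1Δ pct1Δ and at 40.7, 38.6 and 34.7 in cpt1Δ ept1Δ. The deletion strains did not overlap each other, and both overlapped WT. The log2 difference of cpt1Δ ept1Δ from ect1Δ pct1Δ was -0.30 ± 0.10 (edgeR, unadjusted p = 0.00893, Benjamini-Hochberg adjusted p = 0.663), from 0.13 ± 0.10 and -0.17 ± 0.10 against WT. HRD3 (YLR207W, chromosome XII, 556788 to 559289), the partner of the ligase Hrd1, stood at 26.7, 29.3 and 26.1 FPKM in WT, at 27.9, 23.6 and 23.0 in ect1Δ pct1Δ and at 24.0, 27.3 and 25.9 in cpt1Δ ept1Δ. Its strains overlapped, with log2 fold changes of -0.15 ± 0.08 and -0.08 ± 0.08. HRD1, USA1, YOS9, the lectin that reads trimmed glycans, DFM1, a relative of Der1, and SSM4, the Doa10 ligase, had values of -0.05 to 0.04 in both comparisons. The ligase genes stood in a ratio of SSM4 to HRD1 of 2.19 ± 0.23 for WT, 2.09 ± 0.156 for ect1Δ pct1Δ and 2.11 ± 0.0642 for cpt1Δ ept1Δ.

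**Figure D4:**
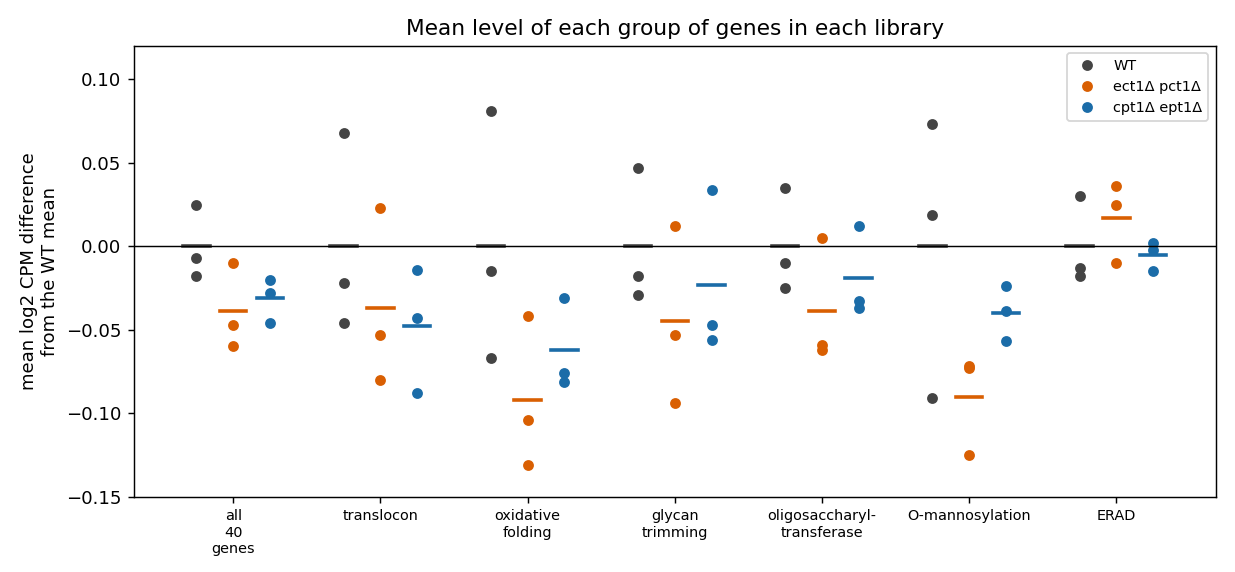
Mean over the genes of each group of the log2 CPM difference from the WT mean, in each library (points) and strain (bars). Within each of the 6 groups both deletion strains overlap WT. Over all 40 genes together ect1Δ pct1Δ (-0.060 to -0.010) also overlaps WT (-0.018 to 0.025). There cpt1Δ ept1Δ (-0.046 to -0.020) lies below WT by very little, and such means of other sets of genes were not compared. The oxidative folding mean is -0.092 ± 0.046 in ect1Δ pct1Δ and -0.062 ± 0.028 in cpt1Δ ept1Δ, while WT itself spans -0.067 to 0.081.

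Neighbouring steps of the pathway were read from lists of further genes. Of 75 measured genes on 7 further ER lists, KAR2 was the 1 gene called by edgeR in each comparison with WT, and 0 were called between the strains. An unadjusted p below 0.05 was found for 0 higher and 4 lower genes in ect1Δ pct1Δ, 1 and 2 in cpt1Δ ept1Δ, 0 and 1 between the strains, and 1 and 6 for both strains against WT; the shares of all genes tested are those given above. Signal recognition particle and receptor genes had medians of 0.01 and 0.03 in ect1Δ pct1Δ and cpt1Δ ept1Δ, signal peptidase genes 0.05 and 0.01, other insertion routes, of which 14 of 17 listed genes were found, 0.01 and 0.04, and synthesis of the lipid-linked glycan -0.04 and 0.00. Other glycan and mannose enzymes had medians of 0.00 and -0.03, ERAD extraction and delivery -0.07 and -0.03, and the Kar2 system with IRE1 and HAC1 -0.07 and -0.08. HAC1 stood at 550, 611 and 554 FPKM in WT, at 545, 541 and 539 in ect1Δ pct1Δ and at 479, 480 and 487 in cpt1Δ ept1Δ, with a log2 fold change of -0.24 ± 0.05 in cpt1Δ ept1Δ (edgeR, Benjamini-Hochberg adjusted p = 0.122). The table gives 1 total per gene, so spliced and unspliced HAC1 cannot be told apart. The remaining genes picked by the smallest unadjusted p were RAD23, which carries ubiquitinated proteins to the proteasome, and KRE5, related to glycoprotein glucosyltransferases, at -0.12 ± 0.05 and -0.16 ± 0.07 in ect1Δ pct1Δ, and PMT6, a further O-mannosyltransferase gene, at 0.18 ± 0.06 in cpt1Δ ept1Δ (edgeR, Benjamini-Hochberg adjusted p of 0.65, 0.671 and 0.651).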

How the data were processed

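The authors deposited 1 table that gives, for every gene in every library, the raw count and its FPKM. The tools HISAT2 2.2.1 and HTSeq 0.6.1 and the build R64 are listed per the submitters' processing notes, without their roles; strand use and the treatment of multiply matched reads are not given in the sources used here. FPKM, so named per the file headers, equalled the count per length and library total in 99.93% of 64098 values (within 0.0051 or a relative 0.002). The table also held 6 columns of 3 libraries that match no sample, not analysed here, and 4 of its lines were emptied before use. All 40 genes had the same start and end as in the RefSeq annotation of R64.

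The test on counts was that of edgeR 4.0.16 under R 4.3.3 (glmQLFit, glmQLFTest, TMM, filterByExpr by group, which kept 6083 genes), with all 9 libraries in 1 fit, a mean per group and no covariates. P-values were two-sided, with Benjamini-Hochberg adjustment over all genes tested and calls below 0.05; the SE is the log2 fold change divided by the square root of F, and 95% intervals use the fit's degrees of freedom. With 3 libraries against 3, an exact permutation test cannot go below 0.1. Overlap between groups was judged on TMM-scaled CPM. Alternatives were DESeq2 1.42.0, limma 3.58.1 on log2(FPKM + 1) and log2(FPKM + 0.1), library totals without TMM, no low-count filter, the compared groups alone, the replicate number as a block, each library left out, and, added after the data were seen, WT replicate 3 and ect1Δ pct1Δ replicate 2 left out together. The fit was tested on simulated data.

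The 40 genes, the further lists, the ratios and the motifs were chosen with earlier results of these data known. Full values go to genes called in any comparison, to the 2 genes of each group with the smallest unadjusted p against WT, to the highest gene of each group, and on the further lists to genes called and the 3 with the smallest unadjusted p; exceptions are named in the text. Of the 40 genes, 7 overlap another gene (CNE1, PDI1, PMT1, SSM4, SEC61, OST2 and ERV2), and their counts are uncertain to that extent; the closest other gene shares at most 79.8% identity over 100 bases or more.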

Additional observations from a re-analysis of the deposited data

How the results depend on the processing

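In every alternative run, 0 of the 40 genes were called in each of the 4 comparisons, and their median log2 fold change stayed between -0.05 and -0.03 in ect1Δ pct1Δ, -0.04 and -0.02 in cpt1Δ ept1Δ, 0.00 and 0.03 between the strains, and -0.04 and -0.02 for both strains against WT. The number of genes called over the whole table moved more. In ect1Δ pct1Δ against WT it was 28, and 13 and 12 by limma on log2(FPKM + 1) and log2(FPKM + 0.1); leaving out 1 library gave 17 (WT replicate 1) to 40. In cpt1Δ ept1Δ against WT it was 8, 16 by DESeq2, 4 by limma with either pseudocount, 4 (without cpt1Δ ept1Δ replicate 2) to 9 with 1 library left out, and 16 without WT replicate 3 and ect1Δ pct1Δ replicate 2. Without that pair of libraries it was 23 in place of 12 between the strains. For both strains against WT it was 26, and 12 and 8 by limma. The cause was not tested.

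The KAR2 call in ect1Δ pct1Δ was also lost with limma (Benjamini-Hochberg adjusted p = 0.161 and 0.17), with the compared groups alone (edgeR, 0.0719) and with the replicate block (edgeR, 0.0777). In cpt1Δ ept1Δ it was lost with limma (0.0886 and 0.0895), and for both strains with limma at the smaller pseudocount (0.0542). Replicate numbers did not pair the libraries: same-numbered libraries deviated together with correlations of -0.27 to 0.26. With the replicate block 23, 7, 11 and 25 genes were called in the 4 comparisons, and 0 of the 40.

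Some group medians near 0 changed sign. The ERAD median in ect1Δ pct1Δ was 0.03, and -0.03 without the pair of libraries; the O-mannosylation median in cpt1Δ ept1Δ was -0.05, 0.02 without WT replicate 1 and -0.13 without WT replicate 3. Some genes had few counts: MPD1, with 163 to 387 per library, had an SE of 0.10 in ect1Δ pct1Δ, against a median SE of 0.0744 over the 40 genes. A relation of SE to depth or length was not tested.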
